A study of Homo sapiens with 40 samples.

Results

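CXCL9, CXCL10 and CCL22 encode 3 secreted chemokines, and their mRNA was followed in 2 human lymphoma cell lines on 40 spotted 2-colour arrays. The probes were those whose single gene symbol in the platform's annotation was 1 of these names, which gave 15 of 15246 probes and 3 of 4604 genes. CXCL9 had 6 probes, CXCL10 had 7 and CCL22 had 2. The genes were picked for strong and unlike responses to IL-10 and to NF-kB block, so their values in those experiments are a description, without a test. OCI-Ly3 and OCI-Ly10 are cell lines from diffuse large B cell lymphomas of the activated B cell-like subtype, and every array set treated cells (Cy5) against control cells of the same line (Cy3).

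The 6 experiments were as follows. OCI-Ly3 cells received IL-10 at 50 ng/ml for 1, 3, 6, 24, 48 or 96 h (10 arrays), against OCI-Ly3 cells. OCI-Ly3 cells carrying an inducible IkB super-repressor received doxycycline at 20 ng/ml for 1, 1.5, 2, 3, 4 or 6 h (9 arrays), against control cells of that transfected line. OCI-Ly10 cells with the same construct received doxycycline at 20 ng/ml for 1.5, 3, 6 or 24 h (4 arrays, 1 per time), again against control cells of their transfected line. OCI-Ly10 cells received IL-6 at 50 ng/ml for 0.5, 1, 3, 6 or 24 h (8 arrays), against OCI-Ly10 cells. OCI-Ly10 cells received JAK inhibitor I at 5 uM for 3 or 6 h (4 arrays), against OCI-Ly10 cells. OCI-Ly10 cells received STAT3 siRNA at 4 uM for 8, 24 or 48 h (5 arrays), against cells given no siRNA. No array measured doxycycline in cells without the construct or a siRNA with another target, and the labels do not say whether a transfected line was 1 clone. There was no dye swap, and the labels do not say whether replicates came from separate cultures, so a p-value covers no more than the spread of these arrays, which may be technical. A ratio gives no level, so the labelled cell type could not be checked against its markers, and fewer cells of a type and less RNA per cell cannot be told apart.

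Chemokines are small secreted proteins that guide migrating leukocytes through receptors on their surface. CXCL9 and CXCL10 are ligands of CXCR3, a receptor of activated T cells and natural killer cells, and both are known targets of interferon gamma. CCL22 is a ligand of CCR4, a receptor of regulatory and helper T cells, and is made by dendritic cells, macrophages and activated B cells. The IkB super-repressor is a form of IkB alpha that is not degraded and holds NF-kB in the cytoplasm, while IL-6 and IL-10 signal through JAK kinases to STAT3.

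CXCL9 and CXCL10 are neighbours on human chromosome 4. In RefSeq annotation of GRCh38.p14, CXCL9 lay at chr4:76001275-76007509 and CXCL10 at chr4:76021118-76023497, both on the minus strand and 13608 bases apart, with CXCL11, another CXCR3 ligand, next to them at chr4:76033682-76036070. CCL22 lay at chr16:57357909-57366189 on the plus strand. The 250 bases before each start site are shown because the 3 genes differed in their values with NF-kB block and with IL-10. The sequences are RefSeq's for GRCh38.p14, read 5′ to 3′ on the gene's strand. Their intervals are chr4:76007510-76007759 for CXCL9, chr4:76023498-76023747 for CXCL10 and chr16:57358533-57358782 for CCL22, whose start site in that table was 874 bases inside the annotated gene. Capitals mark every match to the 3 motifs searched on both strands.
CXCL9: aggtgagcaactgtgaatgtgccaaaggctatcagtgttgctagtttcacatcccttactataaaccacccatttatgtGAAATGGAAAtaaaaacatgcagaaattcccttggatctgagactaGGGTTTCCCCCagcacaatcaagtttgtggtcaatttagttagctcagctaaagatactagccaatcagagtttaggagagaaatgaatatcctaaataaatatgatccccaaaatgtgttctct
CXCL10: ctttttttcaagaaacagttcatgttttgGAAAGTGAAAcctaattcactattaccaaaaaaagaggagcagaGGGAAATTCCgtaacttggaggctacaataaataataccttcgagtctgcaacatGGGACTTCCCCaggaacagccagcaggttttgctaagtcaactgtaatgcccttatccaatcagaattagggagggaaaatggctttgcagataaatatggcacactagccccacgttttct
CCL22: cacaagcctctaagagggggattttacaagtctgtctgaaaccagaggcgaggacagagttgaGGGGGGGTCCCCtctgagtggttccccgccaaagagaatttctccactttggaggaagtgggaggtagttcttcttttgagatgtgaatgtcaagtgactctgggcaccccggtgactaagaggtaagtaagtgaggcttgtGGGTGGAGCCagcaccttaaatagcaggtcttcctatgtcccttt
The motifs were an NF-kB site (GGG and CC with 5 bases of any kind between), an interferon-stimulated response element (GAAA and GAAA with 2 between) and a gamma-activated site for STAT dimers (TTC and GAA with 3 between). The CXCL10 window held 2 separate stretches with the NF-kB letters, at -177 to -168 and at -122 to -112 from the start site, and the interferon element's letters at -221 to -212. The CXCL9 window held 1 stretch with the NF-kB letters at -125 to -115, where matches on both strands overlap, and the interferon element's letters at -171 to -162. The CCL22 window held the NF-kB letters at -187 to -176 and at -45 to -36, and its capitals mark no other motif. The gamma-activated letters were not in any of the 3 windows. Of 35116 promoters of the same length, 54.4% held the NF-kB letters, 3.02% the interferon element's and 6.57% the gamma-activated site's, so an NF-kB match is common and an interferon element match is not. A match is a description of letters, not a site shown to be bound.

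Values below are log2 ratios of treated over control cells after each array was centred on its median, averaged over a gene's probes. The log base was not stated in the sources used here and was read as 2, so each fold below holds only for that base. A window mean is the mean over time points of an experiment, given with the standard error (SE) of the limma fit where it was tested. A gene was called when its p-value, adjusted by Benjamini-Hochberg over all genes tested in that experiment, was under 0.05.

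Array medians lay between -0.03 and 0.01 as deposited, and 8862 to 14947 of the 15246 probes had a value on an array. Correlations between arrays of an experiment ran from -0.19 to 0.79 over the probes with a value on both arrays. The genes that the treatments act on were lower. OCI-Ly10 with the super-repressor had 1 array per time, so all its SE and p-values rest on the spread of other arrays. STAT3 was at -1.59 ± 0.17 after its siRNA (adjusted p = 6.40e-05). NFKBIA, the NF-kB-driven gene of IkB alpha, was at -1.61 ± 0.10 in OCI-Ly3 (adjusted p = 1.21e-08) and at -1.03 ± 0.15 in OCI-Ly10 (adjusted p = 0.00269) under the super-repressor, whose own RNA its probes might also detect.

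With IL-10 the 3 chemokine genes of OCI-Ly3 had 3 different courses. CXCL9 was high at every time, CCL22 was low at every time, and CXCL10 lay on both sides of 0. On the replicate arrays CXCL9 was at 1.02 and 1.28 after 1 h, at 1.32 and 2.60 after 3 h, at 2.17 and 2.60 after 6 h, and at 3.01 and 4.33 after 24 h. Single arrays gave 3.79 after 48 h and 5.02 after 96 h. All 10 arrays were above 0, and the means at 1, 3, 6, 24, 48 and 96 h stood in the order of time, although the replicates after 3 h and after 24 h were 1.28 and 1.32 apart. In folds, CXCL9 was 2.22-fold higher in IL-10-treated than in control cells after 1 h, 12.7-fold after 24 h and 32.5-fold after 96 h. Its window mean of 3.00 ranked number 2 from the top among 4383 genes.

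CCL22, the CCR4 ligand, was at -0.26 and -0.25 after 1 h, at -0.55 and -0.39 after 3 h, at -0.70 and -0.37 after 6 h, and at -1.36 and -1.49 after 24 h. It was at -1.50 after 48 h and at -2.68 after 96 h on single arrays. All 10 arrays were below 0 and the arrays after 24 h and later lay below every earlier array. CCL22 was 1.19-fold lower in IL-10-treated cells after 1 h, 2.68-fold lower after 24 h and 6.40-fold lower after 96 h. Its window mean of -1.14 ranked number 9 from the bottom.

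CXCL10, the neighbour of CXCL9, was at 0.14 and -0.05 after 1 h, at -0.52 and -0.36 after 3 h, at 0.17 and -0.61 after 6 h, and at 0.86 and 0.34 after 24 h, followed by -0.26 after 48 h and 0.42 after 96 h. Of its 10 arrays, 5 were above 0 and 5 below, and its window mean was 0.02. No array of CXCL10 reached the lowest array of CXCL9. In this experiment limma called 35.3% of 4383 genes, from which nothing is read here, since IL-10 was among the treatments the 3 genes were picked on.

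**Figure D1:**
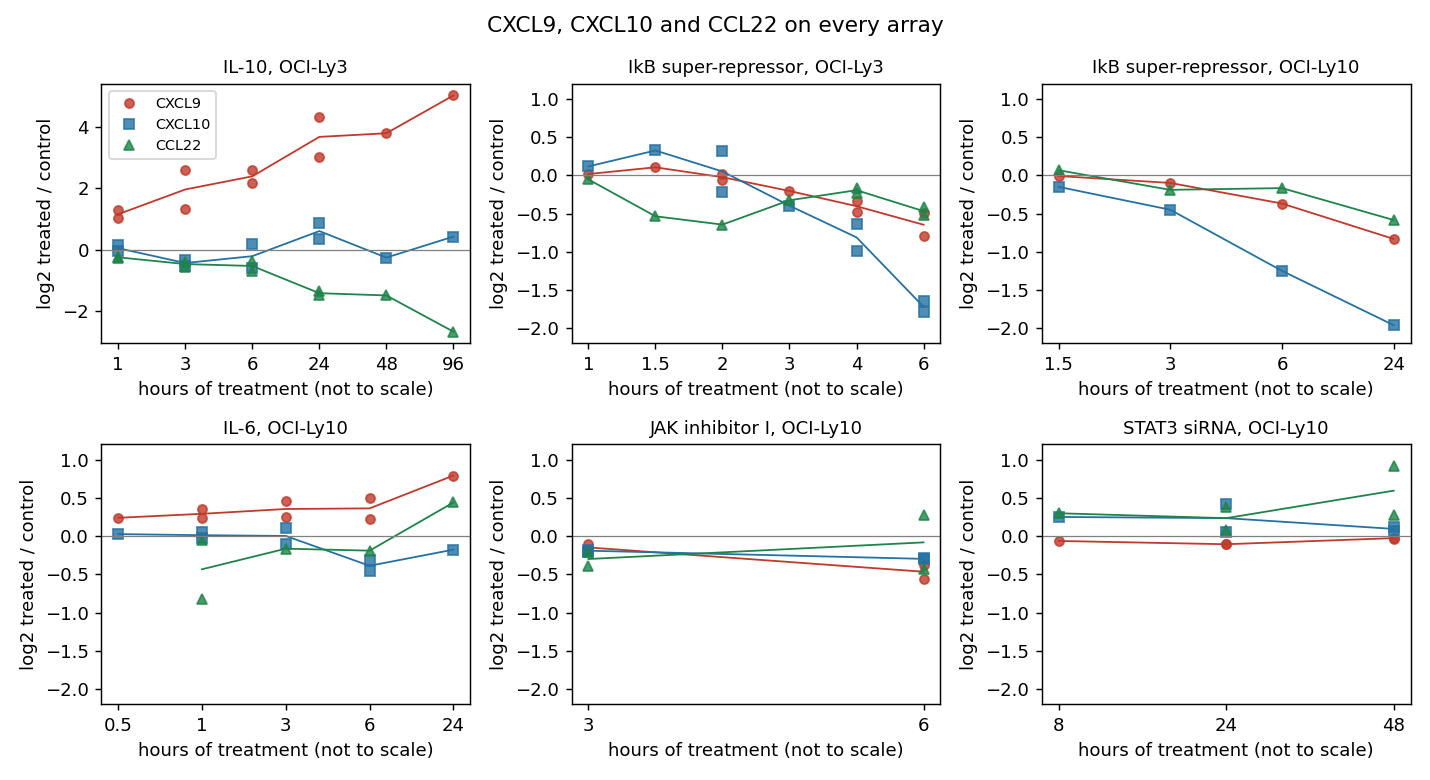
Log2 ratio of treated over control cells (y axis) of CXCL9 (circles), CXCL10 (squares) and CCL22 (triangles) against hours of treatment (x axis, evenly spaced and not to scale), 1 panel per experiment; points are arrays and lines join time-point means. The IL-10 panel has its own y axis, on which CXCL9 reaches 5.02 and CCL22 -2.68 after 96 h; in the other 5 panels, which share an axis, CXCL10 is lowest, at -1.79 after 6 h in OCI-Ly3 and -1.96 after 24 h in OCI-Ly10 with the super-repressor.

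NF-kB block left CXCL10 the lowest of the 3 genes at the latest times in both lines. In OCI-Ly3 with the super-repressor, CXCL10 was at 0.12 after 1 h and 0.33 after 1.5 h on single arrays, at -0.21 and 0.31 after 2 h, and at -0.40 after 3 h. It was at -0.99 and -0.63 after 4 h and at -1.79 and -1.65 after 6 h. The arrays at 4 and 6 h lay below every earlier array, and the first hours were near or above 0. At 6 h CXCL10 was 3.29-fold lower in doxycycline-treated than in control cells, and its mean over 2 to 6 h was -0.72, number 6 from the bottom among 4390 genes. In OCI-Ly10 the single arrays of 1.5, 3, 6 and 24 h gave -0.15, -0.45, -1.25 and -1.96. That is 3.89-fold lower in doxycycline-treated cells after 24 h, and the mean over 3 to 24 h of -1.22 was the lowest of 4514 genes, number 1 from the bottom.

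CXCL9 was lower by less. In OCI-Ly3 with the super-repressor it was at 0.02 after 1 h, 0.11 after 1.5 h, 0.01 and -0.06 after 2 h, -0.20 after 3 h, -0.33 and -0.48 after 4 h, and -0.50 and -0.80 after 6 h, with a window mean of -0.32. In OCI-Ly10 it was at -0.01, -0.10, -0.37 and -0.83 at 1.5, 3, 6 and 24 h, with a window mean of -0.43, or -0.23 without the 24 h array. In both lines CXCL9 was near 0 at the earliest times and lowest at the last.

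CCL22 differed from both in its timing in OCI-Ly3. It was at -0.05 after 1 h and -0.54 after 1.5 h, had 1 blank array and 1 at -0.64 after 2 h, and was at -0.33 after 3 h, at -0.16 and -0.23 after 4 h and at -0.41 and -0.52 after 6 h. The lowest CCL22 values were thus those at 1.5 and 2 h, when CXCL10 was near or above 0, but each rests on 1 array. The one at 1.5 h was close to the lower array at 6 h (-0.52). The window mean of CCL22, from 6 arrays with a value, was -0.41. In OCI-Ly10 it was at 0.07, -0.19, -0.17 and -0.59 at 1.5, 3, 6 and 24 h, with a window mean of -0.31, or -0.18 without the 24 h array. With the super-repressor limma called 14% of 4390 genes in OCI-Ly3 and 0.532% of 4514 genes in OCI-Ly10, from which nothing is read for the 3 genes, picked on this treatment.

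IL-6, JAK inhibitor I and STAT3 siRNA in OCI-Ly10 were not used to pick the genes, and the 3 genes were tested there. Of 8 such tests 0 passed at an adjusted p under 0.05 in the limma fit, and 3 had an unadjusted p under 0.05. CXCL9 with IL-6, CCL22 with STAT3 siRNA and CXCL10 with JAK inhibitor I were those 3. The share of all genes under the unadjusted threshold was not set beside this count, so no excess is read from it.

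With IL-6, CXCL9 was above 0 on every array. It was at 0.24 after 0.5 h, at 0.35 and 0.23 after 1 h, at 0.45 and 0.26 after 3 h, at 0.51 and 0.22 after 6 h and at 0.79 after 24 h. Its mean over 1 to 24 h was 0.45 ± 0.13 (95% interval 0.17 to 0.73, adjusted p = 0.0602 in the limma fit, above 0 on 7 of 7 arrays), number 39 from the top among 3301 genes. That fit called 4.54% of 3301 genes. IL-6 arrays with the same replicate number shared a difference, which cannot be told from one of their run. The replicate block was fitted in every experiment with numbered replicates, also where no such shared difference was shown. With it CXCL9 passed (limma adjusted p = 0.00519), as 314 genes did against 150 without it. The adjusted p ran from 5.4e-05 to 0.290 over the alternatives tried, was 0.199 with the run of arrays as a random block and was 0.225 without the array after 24 h.

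CXCL10 with IL-6 was at 0.03 after 0.5 h, 0.05 and -0.02 after 1 h, 0.11 and -0.11 after 3 h, -0.32 and -0.46 after 6 h and -0.18 after 24 h. Its mean over 1 to 24 h was -0.14 ± 0.09 (95% interval -0.33 to 0.05, adjusted p = 0.381 in the limma fit). Both arrays after 6 h were below the other arrays. CCL22 was measured on 5 of the 7 arrays of that window, at -0.82 and -0.05 after 1 h, -0.16 after 3 h, -0.19 after 6 h and 0.44 after 24 h, and with so many blanks it was not tested.

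With JAK inhibitor I all 3 genes had window means below 0. CXCL9 was at -0.11 and -0.19 after 3 h and at -0.38 and -0.55 after 6 h, with a mean of -0.31 ± 0.17 (95% interval -0.66 to 0.05, adjusted p = 0.392). CXCL10 was at -0.20 and -0.18 after 3 h and at -0.29 and -0.30 after 6 h, with a mean of -0.24 ± 0.11 (95% interval -0.48 to -0.01, adjusted p = 0.291, below 0 on 4 of 4 arrays). CCL22 was at -0.20 and -0.40 after 3 h and at 0.27 and -0.44 after 6 h, with a mean of -0.19 ± 0.13 (95% interval -0.47 to 0.09, adjusted p = 0.534). The 4 arrays of CXCL10 lay close together, while the CCL22 replicates after 6 h fell on both sides of 0. The limma fit called 3.26% of 4480 genes in this experiment and none of the 3.

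At the times that both treatments share, 3 and 6 h, the ratio of CXCL9 was lower with JAK inhibitor I than with IL-6. The difference was -0.67 ± 0.24 (95% interval -1.17 to -0.16, adjusted p = 0.192 in the limma fit). The 4 inhibitor arrays spanned -0.55 to -0.11 and the 4 IL-6 arrays 0.22 to 0.51. How many of all genes were as separate was not counted, so nothing is read from that. With the replicate block the difference passed (limma adjusted p = 0.0226), over a range of 0.0113 to 0.448 among the alternatives tried. The inhibitor arrays were not shown to be paired. For CXCL10 the difference was -0.05 ± 0.16 (95% interval -0.39 to 0.29, adjusted p = 0.940). Of all genes 2.07% were called for this difference, 0.623% higher and 1.44% lower with the inhibitor. Both treatments were set against OCI-Ly10 cells, and the labels do not say whether the arrays shared control RNA.

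With STAT3 siRNA, CCL22 had the highest mean of the 3 genes. CCL22 was at 0.30 after 8 h, at 0.08 and 0.39 after 24 h and at 0.28 and 0.91 after 48 h. Its mean over 24 and 48 h was 0.41 ± 0.13 (95% interval 0.14 to 0.69, adjusted p = 0.0955 in the limma fit, above 0 on 4 of 4 arrays), number 36 from the top among 4346 genes. Without replicate 2 at 48 h the mean was 0.25. CXCL10 was at 0.25 after 8 h, at 0.06 and 0.42 after 24 h and at 0.12 and 0.07 after 48 h, with a mean of 0.16 ± 0.11 (95% interval -0.07 to 0.40, adjusted p = 0.437). CXCL9 was at -0.06 after 8 h, -0.11 and -0.10 after 24 h and -0.02 and -0.03 after 48 h, with a mean of -0.07 ± 0.17 (95% interval -0.42 to 0.29, adjusted p = 0.860). The limma fit called 3.31% of 4346 genes and none of the 3.

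Across the experiments, whose lines, doses and times differ, each gene had its own order of window means. CXCL9 ran from IL-10 (3.00) through IL-6 (0.45), STAT3 siRNA (-0.07), JAK inhibitor I (-0.31) and the super-repressor in OCI-Ly3 (-0.32) to the super-repressor in OCI-Ly10 (-0.43). The IL-10 arrays lay above all IL-6 arrays and these above all siRNA arrays, while the last 4 of this order overlapped with their neighbours. How many of all genes separate in this way was not counted. CXCL10 ran from STAT3 siRNA (0.16) through IL-10 (0.02), IL-6 (-0.14), JAK inhibitor I (-0.24) and the super-repressor in OCI-Ly3 (-0.72) to that in OCI-Ly10 (-1.22), and the arrays of each pair of neighbours overlapped. CCL22 ran from STAT3 siRNA (0.41) through IL-6 (-0.09), JAK inhibitor I (-0.19), the super-repressor in OCI-Ly10 (-0.31) and in OCI-Ly3 (-0.41) to IL-10 (-1.14), again with overlap between neighbours. Its IL-6 value, not tested for its blanks, was -0.26 to 0.0088 with 1 array left out. The order of IL-6 and JAK inhibitor I for CCL22 is therefore not fixed.

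The probes of a gene mostly moved together. For CXCL10 the 7 probes spanned -0.78 to -0.63 with the super-repressor in OCI-Ly3 and -0.05 to 0.07 with IL-10. In OCI-Ly10 with the super-repressor 6 of them had values, and 1 of them, at -0.88, stood above the other 5, which spanned -1.32 to -1.22. The same probe was at 0.04 with JAK inhibitor I, where the other 6 spanned -0.38 to -0.19. The 2 CCL22 probes were both at -1.13 with IL-10, and at -0.20 and -0.43 with the super-repressor in OCI-Ly10.

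One probe of CXCL9 stood apart. Under IL-10 it had a window mean of 1.12, while the other 5 spanned 2.94 to 3.62. At 96 h it was at 2.35, while the highest probe was at 5.83. With the super-repressor in OCI-Ly10 this probe was instead the lowest, at -0.90, against -0.65 to -0.06 for the others. With IL-6 the 6 probes spanned 0.32 to 0.54, all above 0.

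**Figure D2:**
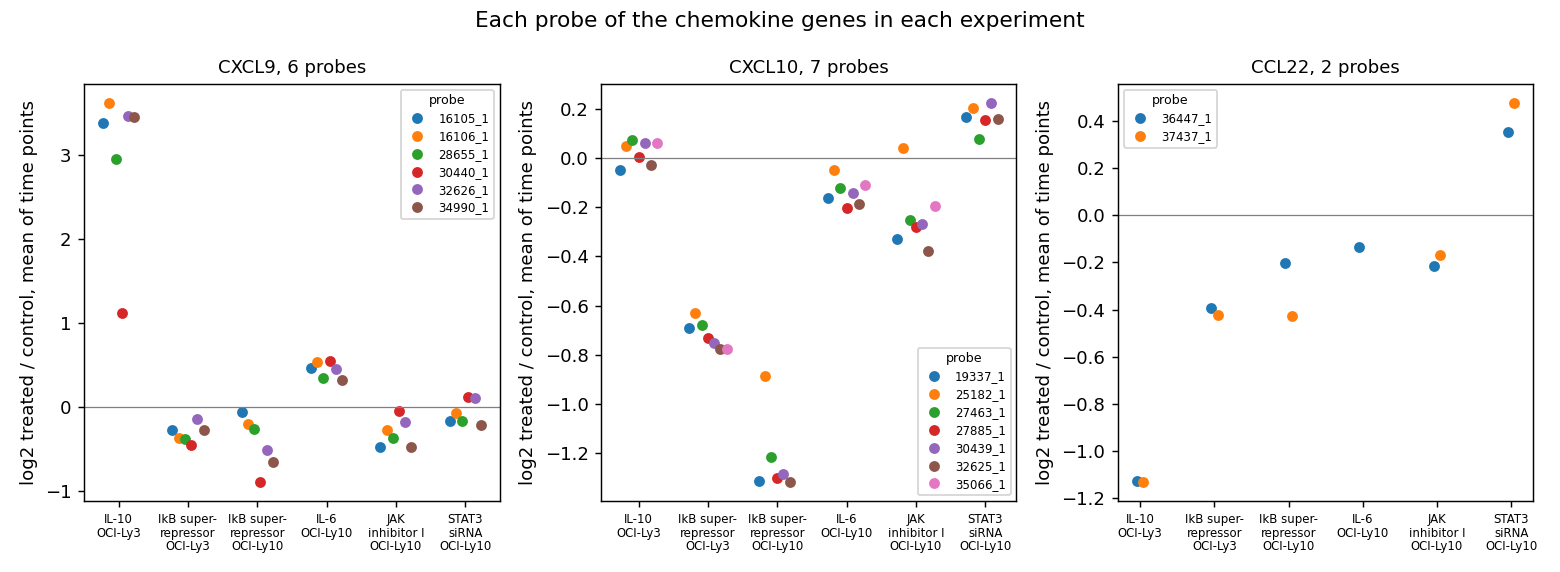
Window mean of the log2 ratio of treated over control cells (y axis) of each probe (points, coloured by probe) of CXCL9, CXCL10 and CCL22 in the 6 experiments (x axis); the y axes differ between panels. 1 probe of CXCL9 lies at 1.12 with IL-10, below the other 5 at 2.94 to 3.62, and 1 of CXCL10 lies at -0.88 with the super-repressor in OCI-Ly10, above its other probes.

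The remaining chemokine ligand genes, 34 on the arrays, gave 1 to 4 calls in each experiment. With IL-10, 2 of 34 rose (16.1% of all genes), 2 fell (19.2%) and their median was -0.02, as it was over all genes (-0.02). CXCL13, the ligand of the B cell receptor CXCR5, rose by 1.24 ± 0.10 (adjusted p = 2.67e-07, 8 of 10 arrays), and CXCL11, the neighbour of CXCL10, rose by 0.28 ± 0.08 (adjusted p = 0.00854, 9 of 10). CCL26, which draws eosinophils, was at -0.44 and CXCL6, which draws neutrophils, at -0.23, both called. CCL17, which shares CCR4 with CCL22, had a window mean of -0.15 ± 0.08 (adjusted p = 0.189) and was at -0.76 ± 0.01 (SD, n = 2) after 24 h. CCL17 was at 0.26 after 96 h (1 array), where CCL22 was at -2.68.

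With the super-repressor in OCI-Ly3, 0 of 33 other ligand genes rose (9.16% of all genes) and 2 fell (4.87%), CXCL13 at -0.56 and CCL18, which draws T cells, at -0.35, with a list median of -0.15 against -0.03 over all genes. CXCL11 was at -0.12 there (adjusted p = 0.386), against -0.72 for CXCL10. In OCI-Ly10 with the super-repressor 1 of 34 rose (0.222% of all genes) and 0 fell (0.31%), with a median of 0.02 against -0.01 over all genes. With 1 array per time in this experiment, the spread used came from the other arrays of the fit. The 1 that rose was CCL4, which draws monocytes, at 0.82 ± 0.12 (adjusted p = 0.00269), with CXCL10 at -1.22 on the same 3 arrays.

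In the experiments not used to pick the genes, CCL3 and CCL4, which draw monocytes, passed where CXCL9, CXCL10 and CCL22 did not. With JAK inhibitor I, 0 of 34 ligand genes rose (1.09% of all genes) and 2 fell (2.17%), CCL4 at -0.80 ± 0.10 (adjusted p = 1.87e-04) and CCL3 at -0.48 ± 0.11 (adjusted p = 0.0167), with a median of -0.07 against 0.00 over all genes. CCL4 was at -1.23 after 3 h and -0.36 after 6 h of the inhibitor. CCL3 was at -0.80 and -0.15 (SD 0.46, n = 2) at those times, above 0 on 1 of 4 arrays. With STAT3 siRNA, 2 of 31 rose (1.27% of all genes) and 0 fell (2.05%), CCL4 at 0.80 and CCL3 at 0.48, with a median of -0.06 against -0.01. With IL-6, 2 of 17 rose (3.48% of all genes), CCL2, which draws monocytes, at 0.37 and CXCL16, the CXCR6 ligand, at 0.32. CCL4, at -0.44, and CCL3, at -0.32, fell in the mean over 1 to 24 h (1.06% of all genes), each with 2 of 7 arrays above 0. CCL3 was at 0.56 after 0.5 h and 0.58 ± 0.06 (SD, n = 2) after 1 h, and CCL4 at 0.45 and 0.25 at those times, and both were below 0 from 3 h on. The list median was 0.09 against -0.01 over all genes.

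**Figure D3:**
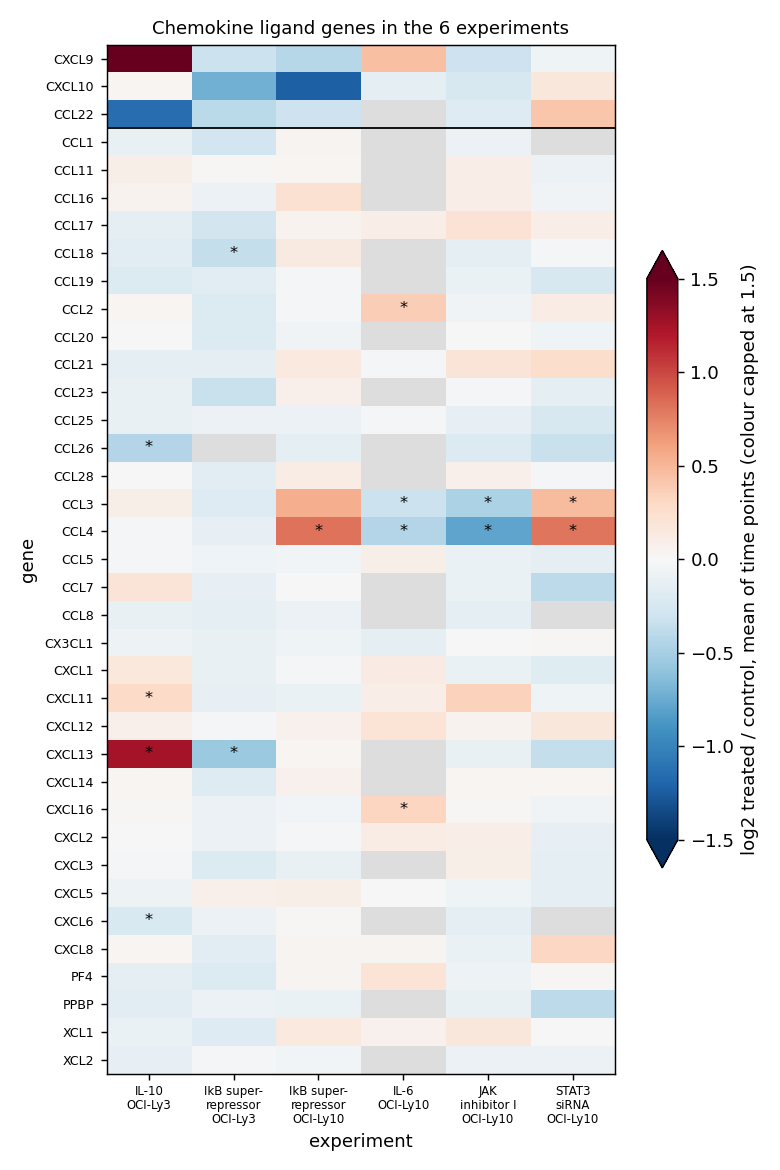
Window mean of the log2 ratio of treated over control cells (colour, red above 0, blue below 0, capped at 1.5 in size) of CXCL9, CXCL10 and CCL22 (above the line) and the other chemokine ligand genes (rows) in the 6 experiments (columns); grey means not tested for want of values, and stars mark adjusted p under 0.05 in the limma fit, given below the line in all experiments and above it only where the 3 genes were tested, where none passed. With IL-10, CXCL9 (3.00), CXCL13 (1.24) and CCL22 (-1.14) stand out, and under the super-repressor CXCL10 does (-0.72 and -1.22).

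Of the receptors, CXCR3, which binds CXCL9 and CXCL10, fell with IL-10 in OCI-Ly3. Its single probe averaged -0.93 ± 0.12 (adjusted p = 4.98e-05, below 0 on 9 of 10 arrays), with time-point means of 0.00, -0.83, -1.16, -1.61, -0.66 and -1.33 at 1, 3, 6, 24, 48 and 96 h. It was lowest at 24 h, whereas CXCL9 was highest at 96 h, and its replicates at 6 h were far apart (SD 0.93, n = 2). ACKR3, a scavenging receptor, fell by 1.19 and CXCR5 rose by 0.53. Of 18 receptor genes 1 rose and 4 fell with IL-10, where 16.1% and 19.2% of all genes did, with a median of -0.01 against -0.02 over all genes. CCR4, the receptor of CCL22, was at -0.08 ± 0.11 (adjusted p = 0.594). With the super-repressor in OCI-Ly3, 2 of 18 rose and 3 fell (9.16% and 4.87% of all genes, median -0.11), and CXCR3 was at 0.17 ± 0.15 (adjusted p = 0.464).

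CXCL9 and CXCL10 are classed with interferon gamma targets, and 23 other genes of that axis were tested with IL-10. Of these, 12 rose and 3 fell, where 16.1% of all genes rose and 19.2% fell, with a median of 0.16 against -0.02 over all genes. CD274, the gene of PD-L1, was at 1.92 ± 0.07 and TAP1, of a peptide transporter, at 1.09 ± 0.08, each called and above 0 on 10 of 10 arrays. IRF1, a transcription factor of the interferon response, rose by 0.16 ± 0.05 (adjusted p = 0.0156), while IRF8 was at -0.29 and IFNG, interferon gamma itself, at -0.23, both called. Of 25 type I interferon genes, 9 rose and 3 fell (16.1% and 19.2% of all genes, median 0.06), among them IFITM3 at 0.99 and MX1 at -0.29.

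With the super-repressor in OCI-Ly3, 1 of 23 interferon gamma genes rose and 4 fell (9.16% and 4.87% of all genes), and ICAM1, an adhesion molecule, was at -0.66, CD274 at -0.30 and IRF1 at -0.25. In OCI-Ly10, 0 rose and 0 fell of 23 in the limma fit (0.222% and 0.31% of all genes), and 0 had an unadjusted p under 0.05. With IL-6 0 of 21 and with STAT3 siRNA 0 of 23 genes of this list passed limma's adjusted threshold (4.54% and 3.31% of all genes). Its unadjusted p was under 0.05 for 4 above 0 and 0 below with IL-6, and for 3 above and 1 below with the siRNA. With JAK inhibitor I, 1 of 23 rose, WARS1, a tRNA synthetase, at 0.64, and 0 fell (1.09% and 2.17% of all genes). There limma's unadjusted p was under 0.05 for 1 above 0 and 3 below. The shares of all genes under the unadjusted threshold were not set beside these counts.

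Genes of NF-kB signalling and its feedback were read beside CXCL10 and CCL22. With the super-repressor 0 of 19 rose and 9 fell in OCI-Ly3 (9.16% and 4.87% of all genes, median -0.29 against -0.03 over all genes), and 0 rose and 3 fell in OCI-Ly10 (0.222% and 0.31%, median -0.13 against -0.01). TNFAIP3, the gene of the feedback inhibitor A20, fell in both lines, at -1.19 ± 0.10 in OCI-Ly3 (adjusted p = 2.69e-07) and at -0.92 ± 0.14 in OCI-Ly10 (adjusted p = 0.00269). With IL-10, 5 of 20 of these genes rose and 9 fell (16.1% and 19.2% of all genes), with TNF, an inflammatory cytokine, at -1.54 ± 0.05 and LTA, lymphotoxin alpha, at -1.40 ± 0.16, both called, on the arrays where CCL22 averaged -1.14.

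Of 18 genes of STAT3 signalling 13 rose and 3 fell with IL-10 (16.1% and 19.2% of all genes, median 0.50), with the inhibitor gene SOCS2 at 1.91 and the phosphatase gene PTPN1 at 1.89, beside 3.00 for CXCL9. With IL-6, 4 rose and 1 fell (3.48% and 1.06% of all genes, median 0.08), and SOCS3, a feedback inhibitor, was at 0.77 ± 0.10 (adjusted p = 2.60e-04), above 0 on the same 7 arrays as CXCL9. With JAK inhibitor I, 1 rose and 3 fell (1.09% and 2.17% of all genes, median -0.13), and with STAT3 siRNA 0 rose and 3 fell (1.27% and 2.05%, median -0.03), STAT3 itself among them.

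Markers of other cell types were read beside the IL-10 values, since myeloid cells make CXCL9, CXCL10 and CCL22. Of 7 tested myeloid and dendritic cell markers 2 rose, CD14 at 0.60 and CD68 at 0.19, and 3 fell, among them CD1C at -0.44 and FCGR3A at -0.28. Of 17 T and natural killer cell markers 2 rose and 2 fell, and of 9 B cell markers 2 rose and 3 fell. Of all genes 16.1% rose and 19.2% fell with IL-10. All arrays were of B cell lymphoma lines, so a marker's value here is not a count of cells of another type. The part of the marker genes in the CXCL9 and CCL22 values was not tested. With the super-repressor in OCI-Ly3, 0 of 7 myeloid markers rose or fell in the limma fit (9.16% and 4.87% of all genes). Of the 7, 1 had an unadjusted p under 0.05 (below 0), and CXCL10 was at -0.72.

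The genes whose ratios followed each chemokine gene most closely differed from one gene to the next. Over the arrays where both had a value, at least 30, CXCL9 had its highest Pearson correlations with CD274 (0.964, 35 arrays), PRDM1, a plasma cell transcription factor (0.938, 40 arrays), and NLRC5, a regulator of MHC class I genes (0.926, 40 arrays). The IL-10 arrays carried these values, since without them the correlations were 0.283, 0.426 and 0.415. CCL22 had its highest with CDC25A, a cell cycle phosphatase (0.861, 33 arrays), TOPBP1, a DNA repair protein (0.852, 36 arrays), and HRAS, a small GTPase (0.849, 36 arrays), and without IL-10 these were 0.580, 0.564 and 0.501. CXCL10 had its highest with BCL2A1, a survival gene (0.830, 40 arrays), PLEK, a substrate of protein kinase C (0.811, 39 arrays), and CFLAR, an inhibitor of caspase activation (0.776, 40 arrays). Without IL-10 those 3 were higher, at 0.887, 0.885 and 0.848.

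These genes were picked for their likeness on these arrays, so their courses are a description and no further support. With the super-repressor in OCI-Ly3, BCL2A1 was at 0.45 after 1.5 h and -1.13 after 6 h, and CXCL10 at 0.33 and -1.72. With IL-10, CD274 was at 0.98 after 1 h and 3.29 after 96 h, and CXCL9 at 1.15 and 5.02. Among themselves, CXCL9 and CXCL10 correlated at 0.407 over 40 arrays and at 0.651 over the 30 without IL-10, CXCL9 and CCL22 at -0.731 over 36 and 0.309 over 26, and CXCL10 and CCL22 at -0.115 over 36 and 0.369 over 26. All these points share arrays, control cells and time courses, so the correlations are a description.

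**Figure D4:**
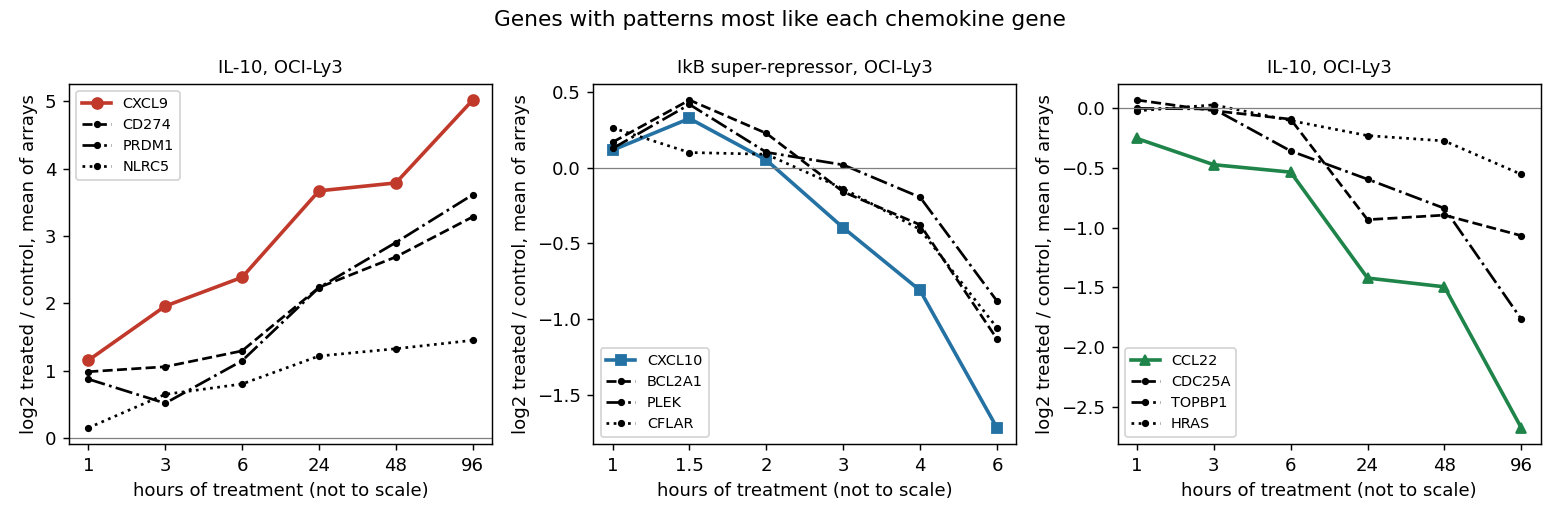
Time-point means of the log2 ratio of treated over control cells (y axis) against hours of treatment (x axis, evenly spaced and not to scale) for CXCL9, CXCL10 and CCL22 (coloured) and the 3 genes most correlated with each over all arrays (black), with IL-10 or the super-repressor in OCI-Ly3. CXCL10 and BCL2A1 are above 0 after 1.5 h (0.33 and 0.45) and lowest after 6 h (-1.72 and -1.13), and CD274 follows CXCL9 to 3.29 after 96 h.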

How the data were processed

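RNA of OCI-Ly3 and OCI-Ly10 cells was measured on 40 2-colour arrays, with treated cells in Cy5 and control cells in Cy3 per the labels. The deposited values were log ratios, read as log2 (their base, background correction, spot filter and normalization: not given in the sources used here), with 12.6% of cells blank. Depth has no meaning for these ratios, and the number of arrays limits the precision; spot intensities were not used here.

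From these values each array was centred on its median and the 10169 probes with 1 symbol were averaged per gene (4604 genes); 5073 probes without a symbol and 4 with several were left out. With limma 3.58.1 in R 4.3.3, 1 mean per experiment and time point was fitted over all 40 arrays, and the mean over a window was tested against 0 (two-sided) with moderated statistics and Benjamini-Hochberg adjustment. Windows were 1 to 24 h for IL-6 (7 arrays), 24 and 48 h for the siRNA (4), 3 and 6 h for the inhibitor (4), 1 to 96 h for IL-10 (10), 2 to 6 h (7) and 3 to 24 h (3) for the super-repressor. A gene was tested where at least 75% of a window's arrays, with 1 or more at each time, held a value for it. The control RNA's own spread is not in a test against 0, and a dye bias of a gene stays in its ratio. Where a time point had 1 array its spread comes from the other arrays of the fit.

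Array identifiers in the titles fell into 12 runs, split at gaps above 50 and without meaning in the labels; the run was tried as a random block (correlation 0.262). Where replicates were numbered, replicates 1 and 2 of an experiment lay in separate runs, so number and run coincide there. Differences between replicates 2 and 1 correlated between time points at 0.193 to 0.269 for IL-6 and 0.376 to 0.577 for IL-10, so the numbers pair these arrays. For the super-repressor in OCI-Ly3 they correlated at -0.319 to 0.32, so there the numbers are not shown to pair them. For the siRNA (0.299) and the inhibitor (0.203) there was 1 such correlation each, too few to decide. Alternatives were equal array spread, the median of probes, single probes, other rules for blanks, the experiment's own arrays, all time points, both blocks and each array left out.

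The 3 genes and the gene lists were chosen with earlier results of these data known. Named were the 3 genes, their receptors and neighbours in the pathway, per list and experiment up to 2 called genes of largest mean in each direction, and per gene the 3 most correlated. List counts leave out the 3 genes. Scripts ran in Python 3.11.15 with pandas 2.3.3. The fit was checked on simulated data with independent arrays, which does not cover correlation within a run.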

Additional observations from a re-analysis of the deposited data

Results flagged for a closer look

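CXCL10 lay on opposite sides of 0 at 3 h and 24 h of IL-10 treatment in OCI-Ly3. Both arrays at 24 h were above 0 (mean 0.60) and both at 3 h were below (mean -0.44), a difference of 1.04 on the log2 scale. The replicates at 6 h, between these times, themselves differed in sign (0.17 and -0.61). The difference between the time points was not tested, since IL-10 was among the treatments the gene was picked on. The single arrays at 48 h (-0.26) and 96 h (0.42) again differed in sign.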

How the results depend on the processing

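With each array scaled to the same spread, 455 genes were called with IL-6 (150 in the reported fit), 83 with STAT3 siRNA (144), 232 with JAK inhibitor I (146) and 238 with the super-repressor in OCI-Ly10 (24). On the experiment's own arrays the counts were 71, 0, 12, 1031 with IL-10 (1548) and 368 with the super-repressor in OCI-Ly3 (616). Of the siRNA's 0, limma gave 619 genes an unadjusted p under 0.05. This fit was not possible for the super-repressor in OCI-Ly10, which had no replicates. With the replicate block the counts were 314 with IL-6, 417 with the siRNA, 259 with the inhibitor, 1105 with the super-repressor in OCI-Ly3 and 39 in OCI-Ly10. With the run as a random block they were 38, 48, 78, 120 and 5. With all time points the siRNA called 643 and the super-repressor in OCI-Ly10 called 10.

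Leaving out 1 array gave 93 to 147 called genes with IL-6 (97 without replicate 2 at 1 h, 93 without replicate 2 at 3 h) and 21 to 106 with the siRNA (53 without replicate 2 at 48 h, 21 without replicate 1 at 24 h). It gave 44 to 160 with the inhibitor (48 and 44 without replicate 1 or 2 at 3 h, 88 without replicate 2 at 6 h). With the super-repressor it gave 269 to 957 in OCI-Ly3 (957 and 277 without replicate 1 or 2 at 2 h, 284 without replicate 2 at 4 h, 269 without replicate 1 at 6 h) and 1 to 17 in OCI-Ly10 (5 without 6 h, 1 without 24 h).

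CXCL9 with IL-6 passed at 0.49 (adjusted p = 0.00687) with equal spread, at 0.45 on its own arrays (0.0269) and with the replicate block (0.00519), and at 0.54 for its highest probe (5.4e-05), which is the probe that stood apart with IL-10. CCL22 with the siRNA passed with the replicate block (0.41, adjusted p = 0.0141, over a range of 0.0141 to 0.404) and was 0.25 to 0.57 with 1 array left out. The difference of CXCL9 between JAK inhibitor I and IL-6 passed at -0.72 with equal spread (0.0343), at -0.67 on own arrays (0.0113) and with the replicate block (0.0226), and at -0.49 for that same probe (0.0234), over a range of 0.0113 to 0.448. No other call of the 3 genes changed with the block.

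Directions turned for the highest probe of CXCL9 with the siRNA (0.12), of CXCL10 with the inhibitor (0.042) and of CXCL10 for inhibitor minus IL-6 (0.16). The untested difference of CCL22 between inhibitor and IL-6 (-0.01) was 0.014 with equal spread, 0.37 with the replicate block and 0.087 with the run block, and -0.19 to 0.16 with 1 array left out. CXCL10 for this difference was -0.11 to 0.0034, and CCL22 with IL-6 -0.26 to 0.0088.

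For the described values, CXCL9 with IL-10 was 2.30 with equal spread, 3.38 by the median probe, 1.12 and 3.62 for its lowest and highest probe and 2.59 to 3.11 with 1 array left out (2.59 without 96 h). CCL22 with IL-10 was -0.85 with equal spread and -1.17 to -0.84 with 1 array left out. CXCL10 with the super-repressor was -0.41 over all times in OCI-Ly3, and in OCI-Ly10 -1.72 with equal spread, -0.95 over all times, -0.88 for its highest probe and -1.61 to -0.85 with 1 array left out. The lowest probe of CXCL9 there was -0.90, and with 1 array left out CXCL9 was -0.60 to -0.23 and CCL22 -0.39 to -0.18. The cause of these changes was not tested. CXCL10 with IL-6, and CXCL9 and CCL22 with the inhibitor, kept direction and side of the threshold under all alternatives run, but CCL22 with the inhibitor was -0.37 to -0.014 with 1 array left out.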
